A study of Mus musculus with 2 samples.

Results

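The S100 calcium-binding family was examined in purified LT-HSC, long-term haematopoietic stem cells, which sustain blood formation from the bone marrow throughout life, through 10 of its genes: S100a1, S100a3, S100a4, S100a5, S100a6, S100a8, S100a9, S100a10, S100a11 and S100a13. Members were chosen by name, as every array sequence whose annotation carried one of these symbols, and the calprotectin genes S100a8 and S100a9 were set against the other 8. The rule gave 12 sequences of 44170 on the array, and 10 genes of 24171. S100a6 and S100a11 had 2 sequences each and the other members 1.

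The arrays compared LT-HSC of mice lacking WASH with LT-HSC of WASH wild-type control mice, both of the C57/BL6 strain, and each genotype had 1 array. Marrow came from femurs and the cells were purified by flow cytometry. The labels give no knockout allele, no Cre driver, no age, and no number of animals per RNA sample. WASH activates the Arp2/3 actin nucleator on endosomes. With 1 array per genotype there is no replicate spread, so every difference below is a value with no test and no error, and a difference between individual mice or sorts cannot be told apart from one of genotype. Values are linear RMA intensities (a background-corrected, between-array normalized signal per sequence), and a log2 difference of -1 means 2-fold lower in the knockout.

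S100 proteins are small proteins with a pair of EF-hand calcium-binding loops, and most work as dimers that bind a target protein when calcium rises. S100a8 and S100a9 pair with each other to form calprotectin, the main cytosolic protein of neutrophils, which withholds zinc and manganese from microbes and, once released, signals through Toll-like receptor 4 and the receptor for advanced glycation end products. Several of the other members bind annexins, proteins that attach to membranes in a calcium-dependent way.

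Array medians were 137 in the knockout and 137 in the control. The 5000 probes of random sequence, which measure signal without a target, stood at 75.7 in the knockout and 71.3 in the control. The median gene in the detected range differed by 0.03. A gene counted as in the detected range if at least 1 of its values exceeded the median of the array it came from. Washc1, the gene of the WASH protein (chromosome 17, 66460972 to 66468796, MM9), was at 107 in the knockout and 119 in the control, a log2 difference of -0.15. Both values lay below the array medians, and since the labels do not say which exons were removed, the reading does not check the genotypes. Of 16 genes marking LT-HSC, 10 were in the detected range, and 4 (Procr, Tek, Fgd5 and Tcf15) were at or below the random-sequence level on both arrays. Kit was at 489 in the knockout and 398 in the control, and Ly6a, which encodes Sca-1, at 596 in the knockout and 835 in the control.

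All 10 members lie on chromosome 3, where the mouse S100a genes form a cluster. On build MM9, used by the array files, 8 members stand between S100a1 (start 90314958) and S100a9 (end 90499613), and S100a11 and S100a10 follow after a gap of 2824804 bp. S100a8 (90473006 to 90473952) and S100a9 (90496554 to 90499613) are 22601 bp apart, and no other named gene on the array lies between them. The promoter sequences of the 4 members with the strongest signals are shown, since these are the ones whose lower knockout values are farthest from background. They are RefSeq windows from 250 bases before to 30 bases after the annotated start, on build GRCm38.p6, written 5′ to 3′ on the gene's strand: chr3:90668821-90669100 (plus strand) for S100a8, chr3:90695692-90695971 (minus strand) for S100a9, chr3:90612644-90612923 (plus strand) for S100a6 and chr3:93520246-93520525 (plus strand) for S100a11. Capitals mark every match to 6 motifs searched on both strands.
S100a8: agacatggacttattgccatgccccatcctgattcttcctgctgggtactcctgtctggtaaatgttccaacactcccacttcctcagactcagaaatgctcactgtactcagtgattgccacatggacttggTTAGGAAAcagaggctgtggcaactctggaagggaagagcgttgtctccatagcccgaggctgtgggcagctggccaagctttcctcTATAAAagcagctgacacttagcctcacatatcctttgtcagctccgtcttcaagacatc
S100a9: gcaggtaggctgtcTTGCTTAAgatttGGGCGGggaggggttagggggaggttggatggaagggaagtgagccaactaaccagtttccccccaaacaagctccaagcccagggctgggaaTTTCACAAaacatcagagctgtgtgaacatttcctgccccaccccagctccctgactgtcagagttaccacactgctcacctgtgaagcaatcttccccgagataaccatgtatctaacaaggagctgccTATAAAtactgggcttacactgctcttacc
S100a6: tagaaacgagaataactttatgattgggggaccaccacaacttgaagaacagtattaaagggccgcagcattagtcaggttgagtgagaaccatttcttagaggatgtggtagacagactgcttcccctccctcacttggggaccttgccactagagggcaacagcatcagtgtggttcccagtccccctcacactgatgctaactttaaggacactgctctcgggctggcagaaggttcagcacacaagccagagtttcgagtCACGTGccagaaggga
S100a11: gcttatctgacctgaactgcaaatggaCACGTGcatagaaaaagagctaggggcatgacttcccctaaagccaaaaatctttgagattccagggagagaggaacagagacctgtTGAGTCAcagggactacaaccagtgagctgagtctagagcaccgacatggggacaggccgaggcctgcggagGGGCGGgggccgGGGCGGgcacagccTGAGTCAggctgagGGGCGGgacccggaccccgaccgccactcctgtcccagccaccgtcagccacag

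The first motif was the TATA box, TATAAA, and the second the E-box, CACGTG. The AP-1 motif was searched as TGANTCA and the motif of the C/EBP family as TTNNGNAA. The STAT motif was searched as TTCNNNGAA and the GC box as GGGCGG. Of the members, 9 had a window in the RefSeq table. TATAAA stood 30 bases before the annotated start in S100a8, 31 bases before it in S100a4, and at bases 1 to 6 after it in S100a9, and it occurs in 13.1% of 32851 promoter windows of this length. S100a3, with several annotated starts, also held it in 1 window. The C/EBP letters matched at 1 position in S100a8, at 2 in S100a9 (both on the strand opposite to the gene) and in windows of S100a3, against 39.3% of all windows with a match. Neither S100a6 nor S100a11 held a C/EBP or TATA match. S100a6 had 1 CACGTG (6.79% of windows), and S100a11 had 1 CACGTG, 2 TGAGTCA (AP-1 letters are in 7.46% of windows) and 3 GGGCGG (34.7%). S100a9 also had 1 GGGCGG, no member held the STAT letters, and no matches of different motifs overlapped. These are letter matches and not measured binding sites.

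The members were mostly lower on the knockout array. Of the 10 genes, 8 were lower and 2 higher, 6 were at least 2-fold lower, and 0 were at least 2-fold higher. Over all 24171 genes 6.42% were at least 2-fold lower and 5.94% at least 2-fold higher, and over the 16245 genes in the detected range the shares were 7.29% and 6.41%. In the detected range were 8 members. S100a1 and S100a4 entered it through the control array alone, and S100a3 and S100a5 lay outside it. The median of all 10 members was -1.13, beside 0.02 over all genes. The members were chosen with earlier results of these arrays known, so this count is a description of them.

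**Figure D1:**
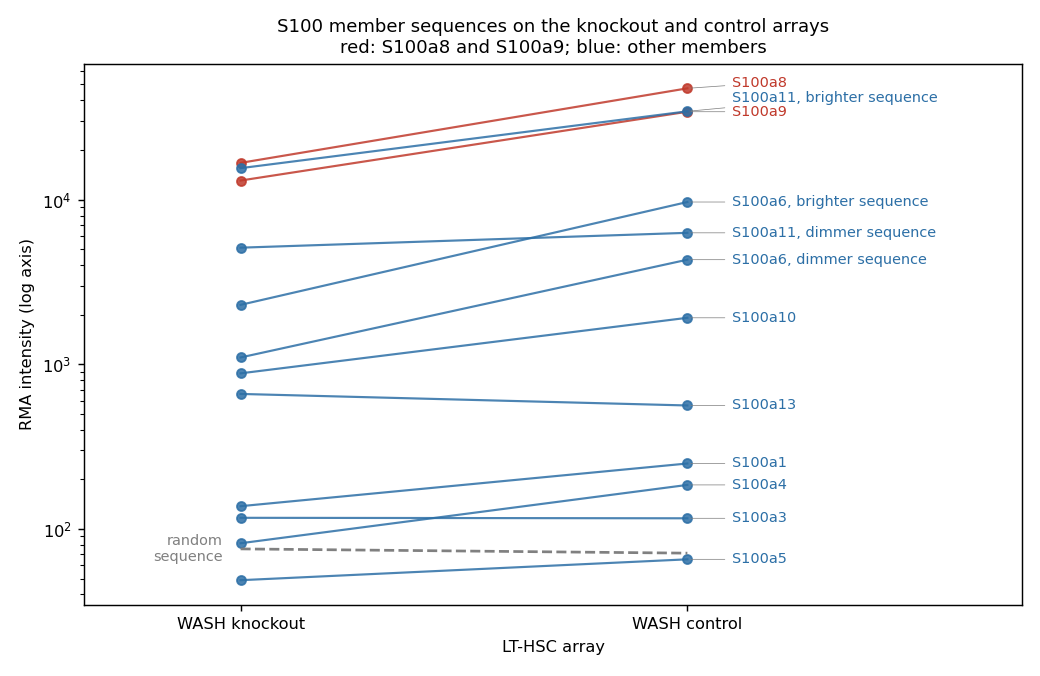
RMA intensity (log axis) of the 12 member sequences on the WASH knockout array (left) and the WASH control array (right), 1 line per sequence; red marks S100a8 and S100a9, blue the other members, and the dashed line the random-sequence level. The bright sequences of S100a8, S100a9, S100a11 and S100a6 slope towards lower knockout values, S100a13 and S100a3 are nearly level, and S100a5 lies under the random-sequence line on both arrays.

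Both calprotectin genes were lower. S100a8 (calgranulin A) had an intensity of 16696 in the knockout and 47334 in the control, a log2 difference of -1.50, or 2.84-fold lower. S100a9 (calgranulin B) had 13043 in the knockout and 34133 in the control, a difference of -1.39, or 2.62-fold lower. The 2 genes thus differed by nearly the same factor, with 0.12 on the log2 scale between their differences. Even on the knockout array they remained far from background, at 221 times the random-sequence level for S100a8 and 172 times for S100a9. Among all genes in the detected range, 2.14% had a difference as low as that of S100a8 or lower, and 2.90% had one as low as that of S100a9. Among genes of such strong signal, 2-fold lower values outnumbered 2-fold higher ones: of the 242 brightest genes (the top 1% by mean log2 value), 6.2% were at least 2-fold lower and 1.65% at least 2-fold higher. In the top 5% these shares were 7.28% and 2.73%.

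Most neutrophil markers in the detected range were lower, as the calprotectin genes were, but not all. Of 20 measured, 17 were in the detected range, 12 of these were lower, 4 at least 2-fold lower and 0 at least 2-fold higher, with a median of -0.76. Their summed intensity was 29555 in the knockout and 65918 in the control, and 0 of the 20 were at or below the random-sequence level on both arrays. Ngp, a neutrophil granule gene, was at 7586 in the knockout and 23754 in the control (-1.65). Lcn2, another metal-withholding protein gene of neutrophils, was at 3448 in the knockout and 10846 in the control (-1.65). Fcnb was at 127 in the knockout and 435 in the control (-1.77), and Chil3 at 597 in the knockout and 2021 in the control (-1.76). The 5 higher markers, named after their values were seen, were Itgam (0.77, with other sequences at -0.27 and -1.73), Stfa2l1 (0.40), Retnlg (0.33, with another at -1.49), Pglyrp1 (0.22) and Cebpe (0.03). Monocyte and macrophage markers, which also include cells rich in calprotectin, went the other way, with 9 of 10 higher, 3 at least 2-fold higher, a median of 0.43 and a sum of 11046 in the knockout and 9390 in the control. The 3 were Fcgr1 (1.31), Csf1r (1.19, with other sequences at -0.26 and -0.04) and C1qa (1.17), and Cx3cr1 was at or below the random-sequence level on both arrays. Erythroid markers were higher as well, with 10 of 14 at least 2-fold higher, a median of 1.68, and a sum of 84548 in the knockout and 16603 in the control. Hbb-b1, a beta-globin gene, was at 43218 in the knockout and 5699 in the control (2.92), Hba-a1 differed by 2.41 and Car2 by 2.32. The LT-HSC list had a median of -0.06 and a sum of 3585 in the knockout and 3983 in the control. Its largest differences were those of Mecom (-1.10), Meis1 (0.96) and Gata2 (-0.85). The 6 Mecom sequences ran from -1.65 to 0.49 and the 3 of Meis1 from 0.42 to 1.13. The other Gata2 sequence was at 0.19. Mast cell, basophil and eosinophil markers had a median of -0.85 over 5 genes (Prg2 -1.08, Mcpt8 -0.94, and Gata2 again), and Cpa3 and Fcer1a were at or below the random-sequence level on both arrays. Megakaryocyte markers had a median of -0.10 over 5 genes (Ppbp -1.40, Pf4 -1.19, Itga2b 0.49), B cell markers 0.06 over 6 (Ms4a1 0.96, Pax5 0.69), and T and NK cell markers 0.07 over 5 (Gzmb -2.64, Cd4 0.42, Nkg7 -0.13). Sequences of Itga2b ran from -0.80 to 0.49, those of Ms4a1 from -0.15 to 0.96 and those of Cd4 from -0.30 to 0.92. In a bulk sample, fewer cells of a type and less RNA per cell cannot be told apart. The part of the neutrophil or erythroid signal in the S100 differences was not tested.

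Among the members, S100a6 and not a calprotectin gene had the largest difference. S100a6, calcyclin, is a calcium sensor of dividing cells that binds the calcyclin-binding protein and annexin A11. Its brighter sequence (90417124 to 90418337) was at 2294 in the knockout and 9660 in the control, a difference of -2.07, or 4.21-fold lower. Its dimmer sequence (90417118 to 90418337) was at 1099.6 in the knockout and 4314 in the control, a difference of -1.97. The 2 sequences cover almost the same transcript, so they are readings of 1 gene and not separate evidence from separate cells. Of the genes in the detected range, 0.412% had a difference as low as S100a6 or lower.

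The annexin-binding members S100a10 and S100a11 were lower too, S100a11 by only 1 of its readings at 2-fold. S100a10 (p11), which does not itself bind calcium and carries annexin A2 to the cell membrane, was at 881 in the knockout and 1914 in the control, a difference of -1.12. S100a11 (calgizzarin), a partner of annexin A1, had a bright sequence (93324418 to 93330210) at 15507 in the knockout and 34327 in the control, a difference of -1.15. Its other sequence, with nearly the same coordinates (93324438 to 93330210), was at 5102 in the knockout and 6279 in the control, a difference of only -0.30. The mean of both gave -0.72, under 2-fold. A locus named S100a11-ps on chromosome 12 has its own sequence on the array, at 135 in the knockout and 216 in the control (-0.67), and whether S100a11 probes also bind its transcripts cannot be seen in these files.

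Of the remaining members, S100a13 had a moderate signal and S100a1, S100a3, S100a4 and S100a5 were dim. S100a4 (metastasin), which binds non-muscle myosin, was at 81.9 in the knockout and 185 in the control, a difference of -1.18. Its knockout value was 1.08 times the random-sequence level, and the difference shrank to -0.83, under 2-fold, when 50 units were added before the log. S100a1, a regulator of calcium handling in muscle, was at 137 in the knockout and 250 in the control (-0.86). S100a13, which takes part in the release of fibroblast growth factor 1, was at 660 in the knockout and 562 in the control (0.23). S100a1 and S100a13 start close together on opposite strands of chromosome 3. Their signs differed, but each has a single sequence and the S100a13 difference was small. The S100a1 knockout value was 1.82 times the random-sequence level. S100a3, known from hair cuticle, was at 117 in the knockout and 116 in the control (0.01). S100a5, known from olfactory neurons, was at 48.8 in the knockout and 65.4 in the control, below the random-sequence level on both, so no fold is given for it.

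Set against each other, the calprotectin genes averaged -1.45 and the other 8 members had a median of -0.99, from -2.07 to 0.23. The calprotectin mean lay -0.46 from that median. Of the other members, 1 (S100a6) was lower than both calprotectin genes and 5 lay between them and 0, among them S100a5, which has no usable difference. Without S100a5, which the authors' series table does not hold, the median of the others was -1.12 and the gap -0.33. The calprotectin differences therefore lay inside the range of the rest of the family. For scale, differences read by several sequences of the same gene had a pooled standard deviation of 0.65, over 8336 genes in the detected range. The gap between calprotectin genes and other members was smaller than that. With 1 array per genotype, whether this gap exceeds the variation between animals cannot be determined.

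**Figure D2:**
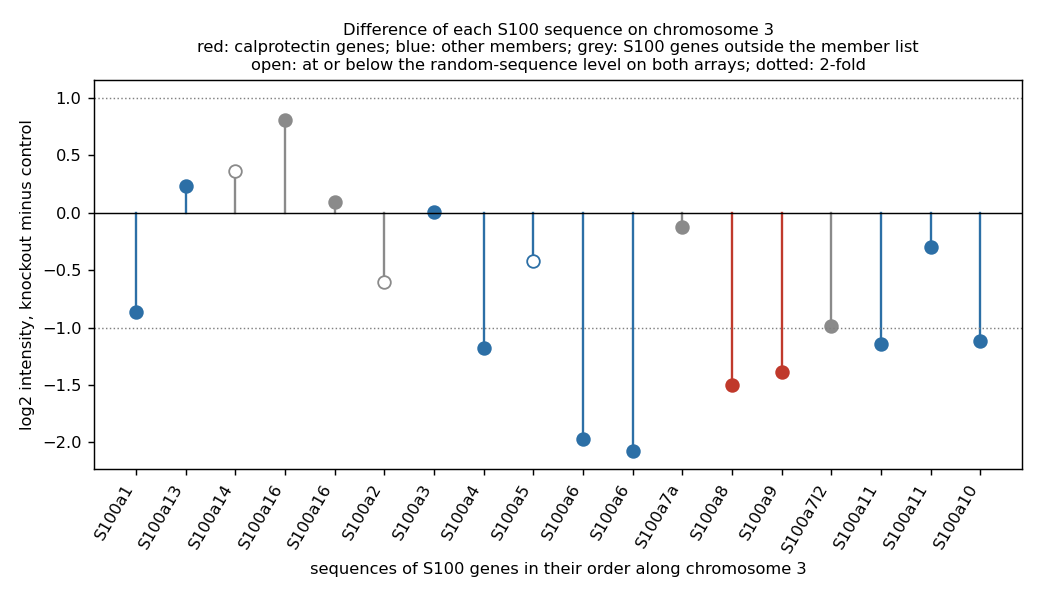
Log2 intensity difference (knockout minus control) of each S100 sequence on chromosome 3, in chromosomal order from left to right without scale; red marks calprotectin genes, blue the other members, grey S100 genes that are not members, and open circles sequences at or below the random-sequence level on both arrays. The lowest points are the 2 sequences of S100a6 (-1.97 and -2.07), S100a8 (-1.50) and S100a9 (-1.39), while S100a16 and S100a13 stand above 0.

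Not every S100 gene near them was lower. S100a16, a widely expressed member of the family, was at 3252 in the knockout and 1857 in the control with its brighter sequence (0.81), and at 709 in the knockout and 666 in the control with the other (0.09). S100a7a, the gene next to S100a8 on the other side from S100a9 and 11203 bp from it, was at 97.5 in the knockout and 106 in the control (-0.13). S100a7l2 (named by a clone symbol in the files) was at 218 in the knockout and 432 in the control (-0.98). S100a2 and S100a14 were at or below the random-sequence level on both arrays. Elsewhere in the genome, S100g, an intestinal vitamin D-dependent calcium binder on chromosome X, was at 561 in the knockout and 386 in the control (0.54). S100b, the glial member on chromosome 10, was at 106 in the knockout and 59.2 in the control, where it was not above the random-sequence level. Hrnr and Flg, large skin genes of the same region with an S100-type domain at one end, differed by 0.32 and -0.25 with their brightest sequences. All 3 Hrnr sequences were higher and all 3 Flg sequences lower, so the readings of each gene differed in size and not in direction. Of the dimmer ones, 1 of Hrnr was at 309.7 in the knockout and 45.6 in the control. For Flg, 1 was at 29.0 in the knockout and 116 in the control. The dimmer Hrnr sequences were below the random-sequence level in the control, and the dimmer Flg sequences in the knockout. Their sizes are therefore read from background signal. Of the 6 measured genes in the list of other S100 genes, 2 were in the detected range and 0 of them reached 2-fold.

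**Figure D3:**
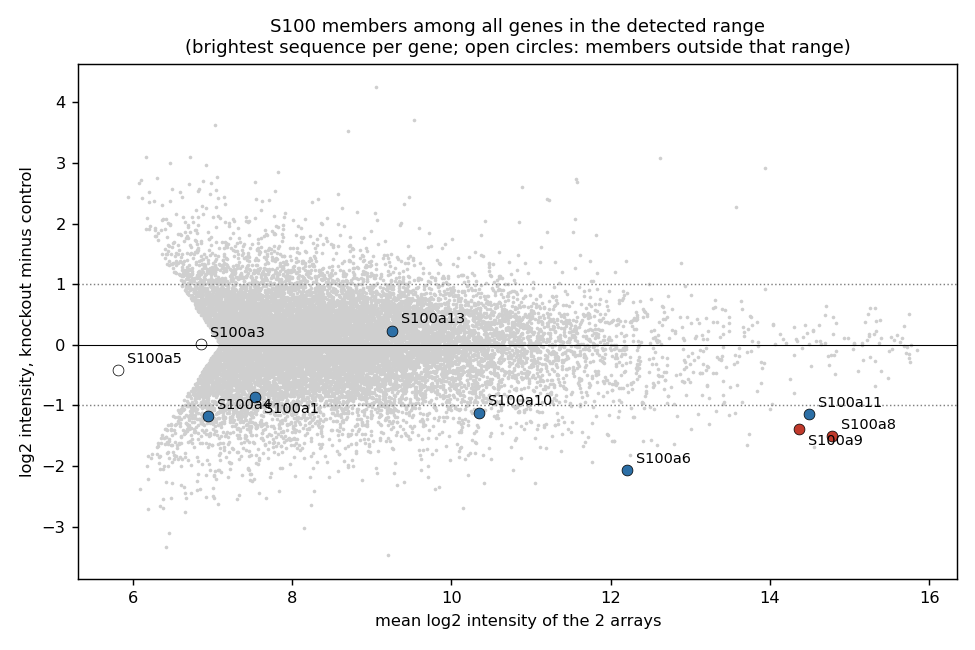
Log2 difference (knockout minus control) against mean log2 intensity for all 16245 genes in the detected range (grey points, brightest sequence per gene) with the 10 members marked (red calprotectin, blue others, open outside the detected range) and dotted lines at 2-fold. S100a8, S100a9 and S100a11 lie at the far right, under the lower dotted line, S100a6 is the lowest member at -2.07, and S100a13 and S100a3 lie at or above 0.

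Genes with the most similar pair of levels on the 2 arrays were sought by Euclidean distance over the log2 values. Within the family, S100a11 lay 0.25 from S100a9 and 0.48 from S100a8, while S100a8 and S100a9 lay 0.59 apart. Outside it, the nearest gene to both was Vim, the intermediate filament gene, at 13365 in the knockout and 43250 in the control (-1.69), 0.35 from S100a8 and 0.34 from S100a9. Next to S100a9 came Ear2, an eosinophil-type ribonuclease gene, at 11419 in the knockout and 23741 in the control (-1.06). The other genes named, Rpl14, Gpatch4, Hnrnpa3 and Serbp1 for S100a8 and Hnrnpa3 and Rpl22 for S100a9, were 0.72 to 1.08 away and differed by -0.63 to -0.08, so their nearness was one of signal strength. With 2 arrays this measure has only 2 points per gene, and it compares signals of different probes, which also depend on how well each probe binds. The dimmer S100a11 sequence, at 5102 in the knockout and 6279 in the control, was far from the level of its brighter one, so the nearness of S100a11 holds for 1 of its sequences.

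Binding partners of the family had 3 genes at least 2-fold lower and 0 at least 2-fold higher among the 19 of 24 in the detected range, with a list median of -0.04. The 3 were annexins, but other annexins of the list had higher knockout values: Anxa6 was at 1117 in the knockout and 654 in the control (0.77), and Anxa5 at 652 in the knockout and 452 in the control (0.53), both named after their values were seen. Anxa1, whose product binds S100a11, was at 964 in the knockout and 4688 in the control (-2.28), and its other sequence was at 148 in the knockout and 460 in the control (-1.64). Anxa11, whose product binds S100a6, was at 2886 in the knockout and 6611 in the control (-1.20), with 4 sequences that all differed downwards, from -1.51 to -0.72. That bright sequence (chromosome 14, 26842224 to 26843417) lies outside the span of the longest Anxa11 sequence (26661720 to 26706290), which was at 144 in the knockout and 410 in the control (-1.51). Anxa2, the S100a10 partner, was at 547 in the knockout and 1388 in the control (-1.35), but its dimmer sequence was at 87.8 in the knockout and 61.8 in the control, where it was not above the random-sequence level. Cacybp, the calcyclin-binding protein gene, was at 271 in the knockout and 260 in the control (0.06). Myh9, the S100a4-binding myosin heavy chain gene, was at 137 in the knockout and 245 in the control (-0.83), and its dimmer sequence was below the random-sequence level on both arrays. Annexins thus differed in both directions, and Cacybp read nearly equal on both arrays.

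Receptors of calprotectin and their signalling genes had mixed directions, with a median of 0.02 over the 13 of 16 in the detected range. The measured values put 3 at least 2-fold lower and 2 at least 2-fold higher, but 1 of the 3, Tlr4, has only a bound below 2-fold. Bsg (basigin, a receptor of S100a9) was at 787 in the knockout and 281 in the control (1.49). Cd36, a scavenger receptor, was at 356 in the knockout and 121 in the control (1.56), and a second sequence was at 194 in the knockout and 89.4 in the control (1.12), while the remaining one was below the random-sequence level on both arrays. Tlr4 was at 55.2 in the knockout, where it was not above the random-sequence level, and at 144 in the control, which makes it at least 1.90-fold lower. Alcam was at 117 in the knockout and 303 in the control (-1.38), and Nfkb1, named after its value was seen, at 514 in the knockout and 1029 in the control, just past 2-fold. Nfkb1 was under 2-fold with quantile normalization (-0.97), loess (-0.99) and the offset of 50 (-0.94). Ager, the gene of the receptor for advanced glycation end products, was at 601 in the knockout and 497 in the control (0.27). Of transcription factors known to act on calprotectin genes, 8 of 9 measured were in the detected range, with a median of -0.01. Only Spi1 among them reached 2-fold, at 196 in the knockout and 77.0 in the control (1.35), and its control value was 1.08 times the random-sequence level. Spi1 entered the detected range through the knockout array alone, and its difference was 0.96, under 2-fold, with 50 units added before the log. Of the 8 factors, 4 were lower and 4 higher. Nr3c1, named after its value was seen, was at 468 in the knockout and 932 in the control (-0.99). All 5 of its sequences were lower. Stat3, named likewise, differed by 0.78 with its brighter sequence and -0.57 with the other. Cebpa and Cebpe, named after their values were seen, differed by -0.06 and 0.03. The other Cebpa sequence was at 336.5 in the knockout and 1088 in the control (-1.69), so the Cebpa readings disagree.

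**Figure D4:**
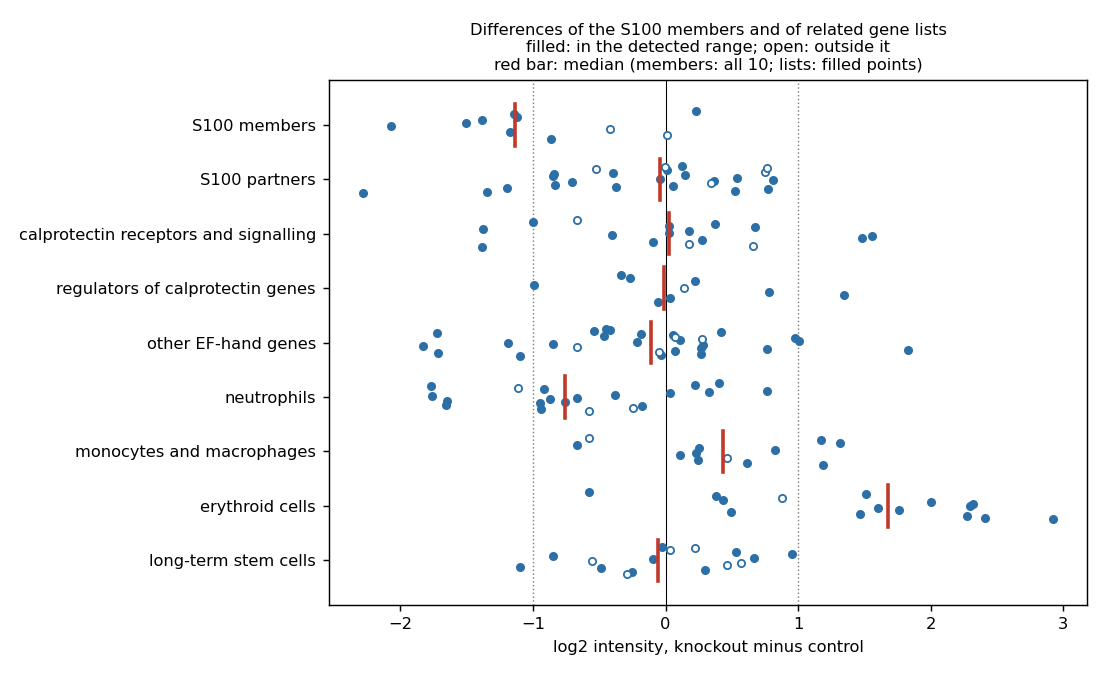
Log2 difference (knockout minus control) of each gene in the S100 member set and in lists of partners, receptors, regulators, other EF-hand genes and markers of neutrophils, monocytes and macrophages, erythroid cells and LT-HSC (other marker lists are not drawn); filled points are in the detected range, open points outside it, and red bars are medians (all 10 members; filled points of the lists). The member median of -1.13 and the neutrophil median of -0.76 lie left of 0, the erythroid median of 1.68 lies right of it, and the medians of the other lists drawn lie between -0.11 and 0.43.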

How the data were processed

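The 2 arrays were single-colour (Cy3) NimbleGen expression arrays of total RNA. The authors deposited 1 linear intensity per sequence, made by RMA per the submitters' processing notes (version not given in the sources used here), from 3 probes for 44155 of 44170 sequences per the file headers. Coordinates are on MM9. Their series table holds the same intensities for 34219 sequences and served as an alternative. RMA pulls array distributions together, so a shift of most genes one way would not be visible.

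Intensities were turned into log2 values and differences taken as knockout minus control, with Python 3.11.15, numpy 2.4.6 and statsmodels 0.14.6. Symbols were updated through RefSeq gene identifiers (21583 matched). A gene was represented by its brightest sequence; the detected range required a value above the array median (percentile 50). With 1 array per genotype no test was made, and genes were counted at 2-fold. Where the text gives a fold as a bound, the random-sequence level stood in for a value at or below it. Differences, medians, counts, distances and figures used the measured values. The array number limits the precision. The counting steps were tested on simulated data. Members and lists were chosen with earlier results of these data known. The rule named all members, the 5 nearest genes to S100a8 and to S100a9, up to 4 genes per list at 2-fold by size, up to 3 markers per list, and Anxa2, Anxa1, Cacybp, Myh9, Tlr4, Ager and Bsg. Kit, Ly6a, Ngp and Lce genes, and others marked so in the text, were named after their values were seen. A few genes chosen this way are not reported here. S100z, Cebpb, Cebpd and some other listed genes were not analysed here. The brightest 1% and the motifs were chosen after the data were seen. Alternatives were the series table, centring, quantile normalization, loess (span 0.3), an offset of 50, averaging a gene's sequences or taking the dimmest, file symbols, other filters and other sizes.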

Additional observations from a re-analysis of the deposited data

How the results depend on the processing

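No paired analysis was possible because only 1 array stands for either genotype, which leaves nothing to fit. S100a8 ranged from -1.51 to -1.40, S100a9 from -1.39 to -1.29 and S100a6 from -2.08 to -1.95 over 8 alternatives. S100a8 and S100a9 have 1 sequence each, so the series table, the mean, the dimmest sequence and file symbols could not change them. Their ranges come from centring, quantile normalization, loess and the offset alone. The series table and file symbols left S100a6 unchanged too. The gap between the calprotectin mean and the median of the other members ranged from -0.80 to -0.33. The count of members at least 2-fold lower was 6 in the report, 5 with the offset, with the mean or dimmest sequence and with the percentile 75 filter, 7 at 1.5-fold and 1 at 3-fold; 0 were higher by the chosen size in every setting run. Against 1185 genes lower and 1042 higher in the detected range, the counts were 735 and 573 with the offset, 676 and 538 with the percentile 75 filter, 2972 and 3004 at 1.5-fold and 280 and 242 at 3-fold, and 677 genes were higher when a gene's sequences were averaged. A larger size or a higher filter lowers these counts by its construction. With the dimmest sequence S100a11 was at -0.30, Anxa2 at 0.51, Capn2 at -0.52 and Rcn2 at 1.49. The last 3 have the opposite sign to the brightest sequence, but these dim sequences were at or below the random-sequence level on both arrays (Capn2) or in the control (Anxa2, Rcn2), so these sizes are read from background signal. The brightest Rcn2 sequence was itself at only 1.12 times that level in the knockout. Members close to random-sequence signal in the knockout (S100a3, S100a4 and S100a5) are limited by background.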

Other observations

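Other genes of EF-hand calcium binding, none of them S100 genes, moved in both directions. The detected range held 24 of the 28 measured, with a median of -0.11, and both directions held genes past 2-fold. Lcp1 (L-plastin, an actin-bundling protein of leukocytes) was at 2570 in the knockout and 9112 in the control (-1.83), and its other 2 sequences differed by -1.94 and -0.45. Sri (sorcin) was at 460 in the knockout and 1507 in the control (-1.71). Rcn2, a calcium binder of the endoplasmic reticulum, was at 84.6 in the knockout and 279 in the control (-1.72). That knockout value was 1.12 times the random-sequence level. The difference was -1.29 with the offset of 50 and -0.28 with the mean of its sequences. Another Rcn2 sequence was at 89.7 in the knockout and 31.9 in the control, where it was below the random-sequence level. Capn2, a calpain protease subunit, was at 387 in the knockout and 109 in the control (1.83), while its other sequence was below the random-sequence level on both arrays.

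The S100 genes of chromosome 3 share their region with genes of the skin barrier. Between the outermost members (90314958 to 93368561, MM9) the array measured 65 genes, of which 50 are not S100 genes. The detected range held 33 of these, with 2 at least 2-fold lower (Lce1a1 and Lce1k), 2 at least 2-fold higher (Gm5849 and Lce3c) and a median of 0.22. The 22 Sprr and Lce genes in the detected range, which encode cornified envelope proteins, had a median of 0.21. Pglyrp4, the next gene beyond S100a9 and 31218 bp from it, was below the random-sequence level on both arrays. Of the 50, 12 were at or below the random-sequence level on both arrays. Most measured genes between S100a9 and S100a10 did not have the lower values of S100a8, S100a9 and S100a6. Many of them are skin genes, and whether the region plays a part in these cells was not tested.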
